A study of Mus musculus with 289 samples.

Results

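The genes described here are 44 genes of the cell cycle and DNA replication, measured in single cortical astrocytes of the mouse. They were taken by name from the count tables of 5 batches: 20 genes of mitosis, 14 of DNA replication and 10 regulators of the G1 phase, out of 55487 genes with a row in at least 1 table. All 44 had a row in batches 1 to 4 and 40 in batch 5, where Cdc20, Bub1, Bub1b and Cdc6 were not analysed here. The cells came from adult transgenic mice that express Cas9, the nuclease that cuts DNA where a guide RNA (gRNA) leads it. The gRNAs were delivered to the cortex by Mok-LV, a lentivirus made to act in astrocytes. Cells were drawn singly into a pipette and sequenced with Smart-seq2, a full-length method without molecular identifiers.

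The groups were cells with gRNAs against Sox9, against Trps1, or against both (called dual here), cells with a control gRNA, and cells labelled as having no gRNA. Batch 1 held 31 no gRNA cells labelled only as adult, 10 control gRNA cells and 4 dual gRNA cells; its day labels run cell by cell from 8 to 16 in control and from 17 to 20 in dual gRNA cells and were not used, so gRNA and labelled day cannot be told apart there. Batch 2 held, on day 7, 8 cells with the control gRNA, and on day 21, 7 with the control and 8 with the dual gRNAs. Batch 3 held 6 no gRNA cells, 21 Sox9 gRNA cells and 14 dual gRNA cells of day 7. Batch 4 held 15 Trps1 gRNA cells of day 7, and 15 control, 16 Sox9 and 13 dual gRNA cells of day 21. Batch 5 held 23 no gRNA cells, 21 Sox9 gRNA cells and 30 Trps1 gRNA cells of day 21. A further 12 libraries were in-slice controls, made by entering the tissue with a pipette but drawing no cell. Virus treatment of the mice behind the no gRNA cells was not given in the sources used here, and the labels say nothing of the efficiency of editing in a cell.

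A dividing cell passes through G1, in which D-type cyclins activate the kinases Cdk4 and Cdk6, and then through S phase, in which the Mcm helicase opens DNA and the clamp Pcna holds the polymerase on it. Genes of G2 and mitosis follow, among them the B-type cyclins, their kinase Cdk1 and the proteins of the spindle and centromere. Adult cortical astrocytes are mostly quiescent, and some re-enter the cycle after injury. D-type cyclins and Cdk4 are also present in cells that do not divide, so the 3 groups of genes are described separately.

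Promoters of mitosis genes are known for CCAAT boxes and for the cell cycle homology region (CHR, TTTGAA), and those of replication genes for E2F sites. In the 250 bases before the start of 32851 RefSeq genes and transcripts (GRCm38.p6), TTTGAA stood on either strand in 15.99% of windows, and in 8 of 18 windows of mitosis genes, 2 of 13 of replication genes and 0 of 9 of G1 regulators. At least 2 copies of CCAAT, on either strand, were in 10.09% of all windows, in 10 of 18 mitosis windows, 5 of 13 replication windows and 0 of 9 G1 windows. The E2F forms TTTCCCGC, TTTCGCGC, TTTGCCGC and TTTGGCGC, on either strand, were in 1.86% of all windows, and in 1 of 18, 4 of 13 and 1 of 9 windows of the 3 groups, in that order. The windows matched 36 of the 44 genes. The bases from 125 to 6 before the start are shown for 4 mitosis genes that were read together in several cells and for the helicase gene Mcm6, 5′ to 3′ on the gene's strand, with CCAAT boxes, CHR and E2F letters, or their reverse complements, in capitals. They lie at chr10:69352918-69353037 (Cdk1, minus strand), chr9:70421560-70421679 (Ccnb2, minus strand), chr11:99024195-99024314 (Top2a, minus strand), chr2:164769804-164769923 (Ube2c, plus strand) and chr1:128359711-128359830 (Mcm6, minus strand).
Cdk1: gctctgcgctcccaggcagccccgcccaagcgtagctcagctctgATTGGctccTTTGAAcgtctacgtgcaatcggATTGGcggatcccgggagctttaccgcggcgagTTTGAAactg
Ccnb2: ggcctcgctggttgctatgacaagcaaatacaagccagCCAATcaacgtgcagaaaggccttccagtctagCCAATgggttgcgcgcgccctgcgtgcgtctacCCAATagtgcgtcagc
Top2a: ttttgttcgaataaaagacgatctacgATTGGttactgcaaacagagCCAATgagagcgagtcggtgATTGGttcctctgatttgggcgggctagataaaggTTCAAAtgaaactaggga
Ube2c: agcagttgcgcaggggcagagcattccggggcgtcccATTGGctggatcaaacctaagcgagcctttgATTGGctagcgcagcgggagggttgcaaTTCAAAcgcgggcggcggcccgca
Mcm6: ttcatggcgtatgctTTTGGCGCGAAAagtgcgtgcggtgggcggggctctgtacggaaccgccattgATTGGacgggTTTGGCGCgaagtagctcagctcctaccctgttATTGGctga
The Cdk1 stretch holds 2 CCAAT boxes and 2 CHR letters, Ube2c 2 and 1, Top2a 3 and 1, and Ccnb2 3 CCAAT boxes and no CHR within these 120 bases. Mcm6 holds 2 CCAAT boxes and 3 E2F matches, of which a pair overlaps as TTTGGCGCGAAA. A match of letters is a description and not a measured binding site.

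Astrocyte libraries held 15959 to 4656612 reads in genes (median 1094502), and 3 of the 6 no gRNA cells of batch 3 held fewer than 100000. Summed over a pool, the 10 astrocyte markers made up 1626 to 18331 reads per 1000000 reads in genes (CPM) in astrocytes and 67.0 to 1354 CPM in in-slice controls, with all 10 read in each astrocyte pool. The 12 markers of microglia and macrophages summed to 191 to 292 CPM in the 3 no gRNA pools and to 5102 to 11162 CPM in gRNA pools, with 11 or 12 of 12 read in gRNA pools. In-slice controls held 1944 to 26880 CPM of these markers. The targeted genes were not uniformly lower with their gRNA: Sox9 was at 1303 CPM in the Sox9 gRNA pool of batch 3 against 382 CPM in no gRNA cells, and Trps1 at 57.6 against 91.9 CPM in batch 5. Since the labels name no animal, each gRNA group, day and batch is 1 pool of cells, no test was run, and intervals (95%) cover counting error only. Fewer cells of a type and less RNA per cell cannot be told apart in a pool. Whether RNA of microglia enters the values of the 44 genes was not tested.

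Cells with several mitosis genes were found in gRNA pools of batches 1 to 4 and not among no gRNA cells. With each cell thinned to 100000 reads, 24 of 182 gRNA cells (13.2%, Clopper-Pearson interval 8.64 to 18.98%) held a read of 3 or more of the 20 mitosis genes. None of 57 no gRNA cells did, which allows a share of up to 6.27%, and none of 12 in-slice controls (up to 26.5%). On all reads the counts were 36 of 182, 1 of 60 and 1 of 12. These sums cross batches, and batches 2 and 4 held no cells labelled as without a gRNA. They describe the cells and are not a comparison of groups, for which the counts within each batch follow. Within batch 1, 4 of 10 control gRNA cells (40.0%, 12.2 to 73.8%) and 2 of 4 dual gRNA cells passed, against 0 of 31 no gRNA cells (up to 11.2%). Median depth in batch 1 was 1043165 reads in control gRNA cells, 1500690 in dual gRNA cells and 1071441 in no gRNA cells. In batch 2, 1 of 8 control gRNA cells of day 7, 0 of 7 of day 21 and 1 of 8 dual gRNA cells of day 21 passed. In batch 3, 1 of 21 Sox9 gRNA cells and 2 of 14 dual gRNA cells passed, against 0 of only 3 no gRNA cells deep enough (up to 70.8%). In batch 4 the cells were 6 of 15 Trps1 gRNA cells of day 7 (40.0%, 16.3 to 67.7%) and 5 of 15 control gRNA cells of day 21 (33.3%, 11.8 to 61.6%), beside 1 of 16 Sox9 and 1 of 13 dual gRNA cells of day 21. In batch 5, whose table holds 17 of the 20 genes, 0 of 21 Sox9, 0 of 30 Trps1 and 0 of 23 no gRNA cells passed, with limits of 16.1, 11.6 and 14.8%.

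**Figure D1:**
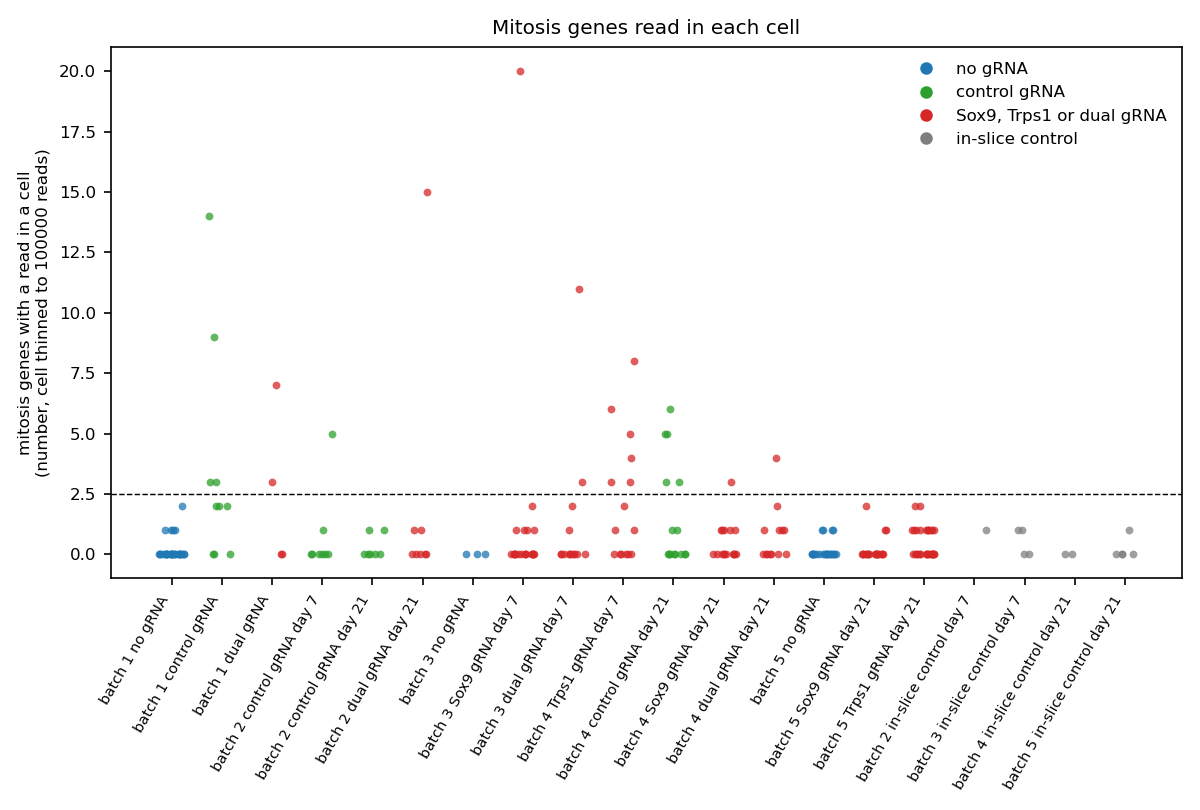
Number of the 20 mitosis genes (17 in batch 5) with a read in each cell, after thinning to 100000 reads, by pool; each point is a cell, jittered sideways, the dashed line separates cells with 3 or more, and green is control gRNA and red Sox9, Trps1 or dual gRNA. No gRNA cells (blue) and in-slice controls (grey) hold at most 2, and 1 cell of batch 3 holds all 20.

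Cells with very many genes weighed on these shares. Of 12 astrocytes with over 9000 genes with a read, 8 were among the 24, including all 5 of the control gRNA cells of batch 4. Without cells of over 9000 genes, a choice made after seeing the data, 16 of 171 gRNA cells (9.36%, 5.44 to 14.7%) passed, and the control gRNA pool of batch 4 had none. The 5 cells of that pool held only 59.0 to 365 CPM over the mitosis genes, with 9036 to 11731 genes each. No caller of doublets was run on these hand-drawn cells, and whether 2 cells entered a pipette together was not tested.

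**Figure D2:**
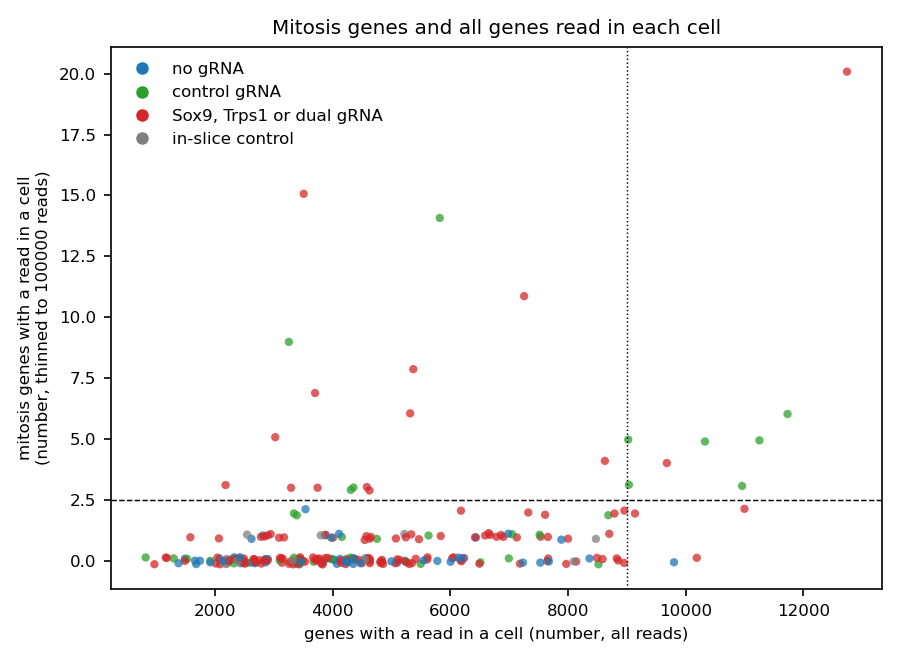
Number of mitosis genes with a read (vertical, thinned to 100000 reads, jittered) against the number of all genes with a read (horizontal, all reads) in each cell of 100000 reads or more. The dotted line is at 9000 genes, to the right of which lie the cell with 20 mitosis genes and the 5 control gRNA cells of batch 4; the cells with 15, 14 and 11 mitosis genes lie to its left.

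The cells themselves differed in what they carried. Cell 17 of the Sox9 gRNA pool of batch 3 had a read of all 20 mitosis genes, 39 of 44 members and 12740 genes, the most of any astrocyte. Its mitosis genes summed to 1944 CPM, its astrocyte markers to 5410 and its microglia markers to 11165 CPM. Cell 3 of the dual gRNA pool of batch 2 had 15 mitosis genes at 11618 CPM in only 3510 genes. In it the ribonucleotide reductase subunit Rrm2 stood at 2364, Top2a at 1763, Pcna at 1511 and Cdc20 at 1370 CPM, with astrocyte markers at 9669 and microglia markers at 913 CPM. Cell 4 of the dual gRNA pool of batch 3 had 12 mitosis genes at 2113 CPM and 13 of 14 replication genes at 4853 CPM, with Rrm2 at 982, Mcm2 at 709, Mcm3 at 622 and cyclin E1 (Ccne1) at 573 CPM. Its astrocyte markers were at 10993 and its microglia markers at 2872 CPM. These 2 dual gRNA cells held more astrocyte than microglia marker RNA.

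In other cells the order of the markers varied. Cell 7 of the control gRNA pool of batch 1 had 16 mitosis and 7 replication genes (2670 and 2217 CPM), with 14097 CPM of microglia and 3691 CPM of astrocyte markers. Cell 5 of that pool had 10 mitosis genes at 3950 CPM, with 11392 and 9501 CPM of the markers in the same order. Cell 4 of the dual gRNA pool of batch 1 had 7 mitosis genes at 2930 CPM, with 13882 and 10963 CPM. In the Trps1 gRNA pool of batch 4, cell 7 had 9 mitosis genes at 1588 CPM with 2180 CPM of microglia and 13102 CPM of astrocyte markers, and cell 12 had 5 at 5624 CPM, led by Mki67 at 2085 and the spindle factor Tpx2 at 1817 CPM. Cell 10 of that pool had 3 at 6028 CPM with 46.4 CPM of astrocyte and 13986 CPM of oligodendrocyte markers, so its markers go against its label. Cell 20 of that pool had 8 at 230 CPM, with reads of 1 astrocyte marker (124 CPM) and 2 microglia markers (11.99 CPM). Its markers thus give little support to its label. The 1 cell of the Sox9 gRNA pool of batch 4, cell 20, held 19051 CPM of astrocyte and 18072 CPM of red blood cell markers. Over the 24 cells, microglia markers ran from 11.99 to 28253 CPM and astrocyte markers from 46.4 to 30068 CPM; 18 held 1000 CPM or more of both. Their mitosis genes ran from 10.8 to 11618 CPM, with 13 cells at 1000 CPM or more and 4 under 100. A total of 15 astrocytes reached 1000 CPM of mitosis genes, all with a gRNA, and cells 4 and 10 of the control gRNA pool of batch 1 did so on 2 genes after thinning.

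Mitosis genes summed to 17.6 CPM or less in no gRNA pools and to 10.8 to 1463 CPM in gRNA pools. The sum was 17.6 CPM (16.2 to 19.2) in no gRNA cells of batch 1, 0.303 in batch 3 and 4.09 in batch 5. It was 1463 CPM (1441 to 1486) in control gRNA cells of batch 1, whose median cell stood at 1422 CPM and whose highest cell gave 12.9% of the reads. Not every gene of the list followed that sum: in this pool Mki67 was at 1.90 CPM, in 1 of 10 cells, and Cenpe and Kif11 had no read. The Trps1 gRNA pool of batch 4 was at 844 CPM, with a median cell of 72.1 and 15.1% from its highest cell. In 4 other pools 1 cell carried the sum: without it the dual gRNA pool of batch 2 went from 1414 to 8.84 CPM, that of batch 1 from 842 to 1.80 CPM, and the control gRNA pools of batch 2 from 120 to 16.5 CPM (day 21) and from 24.9 to 0.130 CPM (day 7). The dual gRNA pool of batch 3 went from 306 to 156 CPM and the Sox9 gRNA pool from 91.7 to 20.3 CPM. The day 21 pools of batch 4 stood at 30.7 (control), 49.8 (Sox9) and 52.6 CPM (dual), and those of batch 5 at 10.8 (Sox9) and 40.4 CPM (Trps1). In-slice controls were at 0 to 59.1 CPM.

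By role, the cyclins and kinase of mitotic entry were read in few cells: Ccna2 in 28 of 242 astrocytes, Ccnb1 in 16, Ccnb2 in 15 and Cdk1 in 16. Ccna2 ranged from 0 to 222 CPM over the 16 pools and Cdk1 from 0 to 125 CPM, and Cdk1 also reached 59.1 CPM in the in-slice control of batch 2. Cdc20 and Ube2c, which act with the anaphase promoting complex, peaked at 305 CPM in the dual gRNA pool and 266 CPM in the control gRNA pool of batch 1. The chromosomal passenger genes Birc5 (21 cells, up to 193 CPM) and Aurkb (11 cells, up to 167 CPM) also peaked in batch 1. The mitotic kinases Aurka and Plk1 stayed at or under 18.1 and 20.2 CPM. The checkpoint genes Bub1 and Bub1b were read in 6 and 7 of 168 cells, up to 66.2 and 164 CPM. The centromere genes Cenpa (21 cells) and Cenpe (14 cells) reached 106 and 201 CPM, the former in control gRNA cells of day 21 in batch 2. Among spindle genes, Kif11 reached 88.5 CPM in the dual gRNA pool of batch 3, Tpx2 169 and Prc1 105 CPM in the Trps1 gRNA pool of batch 4, and Nusap1 only 17.4 CPM. Top2a, which untangles sister chromatids, was read in 23 cells and reached 213 CPM in the dual gRNA pool of batch 2. Mki67, the common marker of cycling cells, was read in 20 cells and reached 214 CPM in the Trps1 gRNA pool of batch 4, of which 84.0% came from cell 12. Without the highest cell of the pool, the peaks of Cdc20, Aurka, Plk1, Bub1b, Cenpe and Top2a fell to 0 CPM. Those of Aurkb, Cenpa, Cdk1 and Bub1 fell to 0.516, 0.0788, 0.0549 and 10.2 CPM, while Ccna2, Ube2c and Birc5 stayed at 101, 169 and 89.5 CPM. On all reads, none of the 60 no gRNA cells had a read of Mki67, Cdk1, Aurkb or Plk1. Aurkb and Plk1 were read in only 11 and 7 of the 242 astrocytes, and the share of all genes unread in no gRNA cells is not given here.

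**Figure D3:**
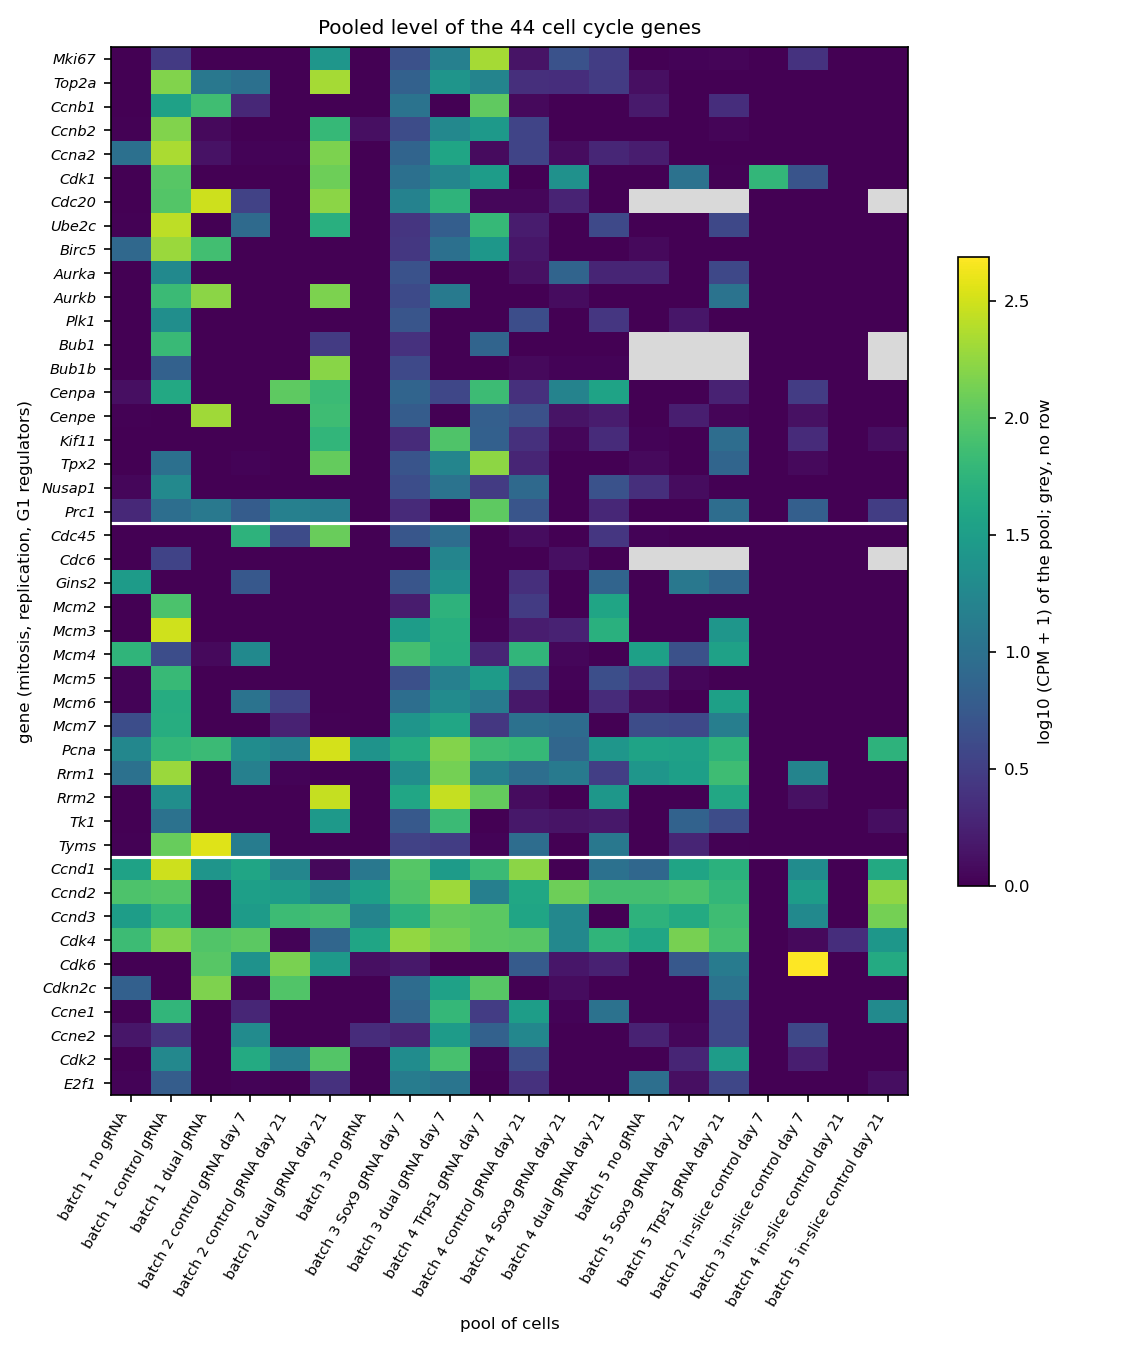
Pooled level of each of the 44 genes (rows; mitosis, replication and G1 regulators from the top, separated by white lines) in each pool of cells (columns), as log10 of CPM plus 1; grey marks genes without a row. Dark blue is 0 and yellow the highest; mitosis genes sum to 17.6 CPM or less in no gRNA pools, while the D-type cyclins, Cdk4 and Pcna are read in nearly all astrocyte pools.

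Replication genes were read in no gRNA cells as well. Their sum was 954 CPM in control gRNA cells of batch 1 (median cell 548), 906 in dual gRNA cells of batch 3 and 757 in those of batch 2, against 115, 23.3 and 98.3 CPM in the no gRNA pools of batches 1, 3 and 5. The Trps1 gRNA pools of batches 4 and 5 were at 240 and 282 CPM of replication genes, beside 844 and 40.4 CPM of mitosis genes. The highest cell gave 81.1% of the sum in the dual gRNA pool of batch 2 and 46.2% in that of batch 3. Of the helicase subunits, Mcm3 was read in 7 of 10 control gRNA cells of batch 1 (311 CPM, 301 to 322) and in 0 of 60 no gRNA cells, and Mcm2 in 8 of 242 cells in all. Mcm4 was the subunit read most often, in 44 cells, 11 of them without a gRNA (up to 56.3 CPM). Mcm7 was read in 29 cells, Mcm6 in 19 and Mcm5 in 18, each up to 45.6 to 64.1 CPM. The helicase partners Cdc45 and Gins2 were read in 13 and 15 cells, and the loading factor Cdc6 in 3 of 168. Gins2 was at its highest in no gRNA cells of batch 1 (28.9 CPM, and 2.78 CPM without the highest cell). Of the enzymes of nucleotide supply, Rrm1 was read in 45 cells, 7 of them without a gRNA. Rrm2 was read in 21 astrocytes, all with a gRNA, and in 2 of 12 in-slice controls (up to 0.332 CPM). Most astrocytes carried a gRNA, and the share of all genes unread in no gRNA cells is not given here. Neither Rrm2 nor Mcm3 can therefore be called particular to gRNA cells. Rrm2 was at 286 CPM in the dual gRNA pool of batch 2, all from cell 3, and at 283 CPM in that of batch 3, 73.4% of it from cell 13. Thymidylate synthase (Tyms) reached 359 CPM in the dual gRNA pool of batch 1 and thymidine kinase (Tk1) 67.4 CPM in that of batch 3. Without the highest cell of its pool, Tyms stood at 0.258 CPM. Pcna was read in 98 of 242 astrocytes and in all 16 pools, from 6.75 CPM in Sox9 gRNA cells of batch 4 to 326 CPM (318 to 334) in dual gRNA cells of batch 2. There its cells ran from 0 through a median of 194 to 1511 CPM.

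Of the 10 G1 regulators, 4 were read in many cells with or without a gRNA and in in-slice controls, and the other 6 in 15 to 24 cells each. Ccnd2 had a read in 131 of 242 astrocytes (54.1%), Cdk4 in 107, Ccnd3 in 72 and Ccnd1 in 67. Among the 60 no gRNA cells these were read in 34, 26, 15 and 10. Per kilobase of exon, the scale on which genes can be compared, the no gRNA pool of batch 5 held 11.8 CPM of Cdk4, 8.18 of Ccnd2, 6.19 of Ccnd3 and 1.46 of Ccnd1, while the control gRNA pool of batch 1 held 65.7 of Ccnd1, 47.2 of Cdk4, 9.87 of Ccnd2 and 6.56 of Ccnd3. In-slice controls of batch 5 reached 176 CPM of Ccnd2 and 134 of Ccnd3, above each astrocyte pool of that batch (60.1 to 84.2 and 42.8 to 70.7 CPM), and 94.5 and 97.7% of that came from 1 library. Those of batch 3 reached 491 CPM of Cdk6, which no astrocyte pool exceeded (0 to 142 CPM). Cdk4 was at most 25.4 CPM in in-slice controls. Cdkn2c, an inhibitor of Cdk4 and Cdk6, was read in 23 cells, up to 146 CPM in the dual gRNA pool of batch 1. Without the highest cell it stood at 0.562 CPM there. Ccne1, Ccne2, their kinase Cdk2 and the transcription factor E2f1 were read in 15, 22, 24 and 17 cells, up to 61.0, 29.05, 92.0 and 12.4 CPM.

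**Figure D4:**
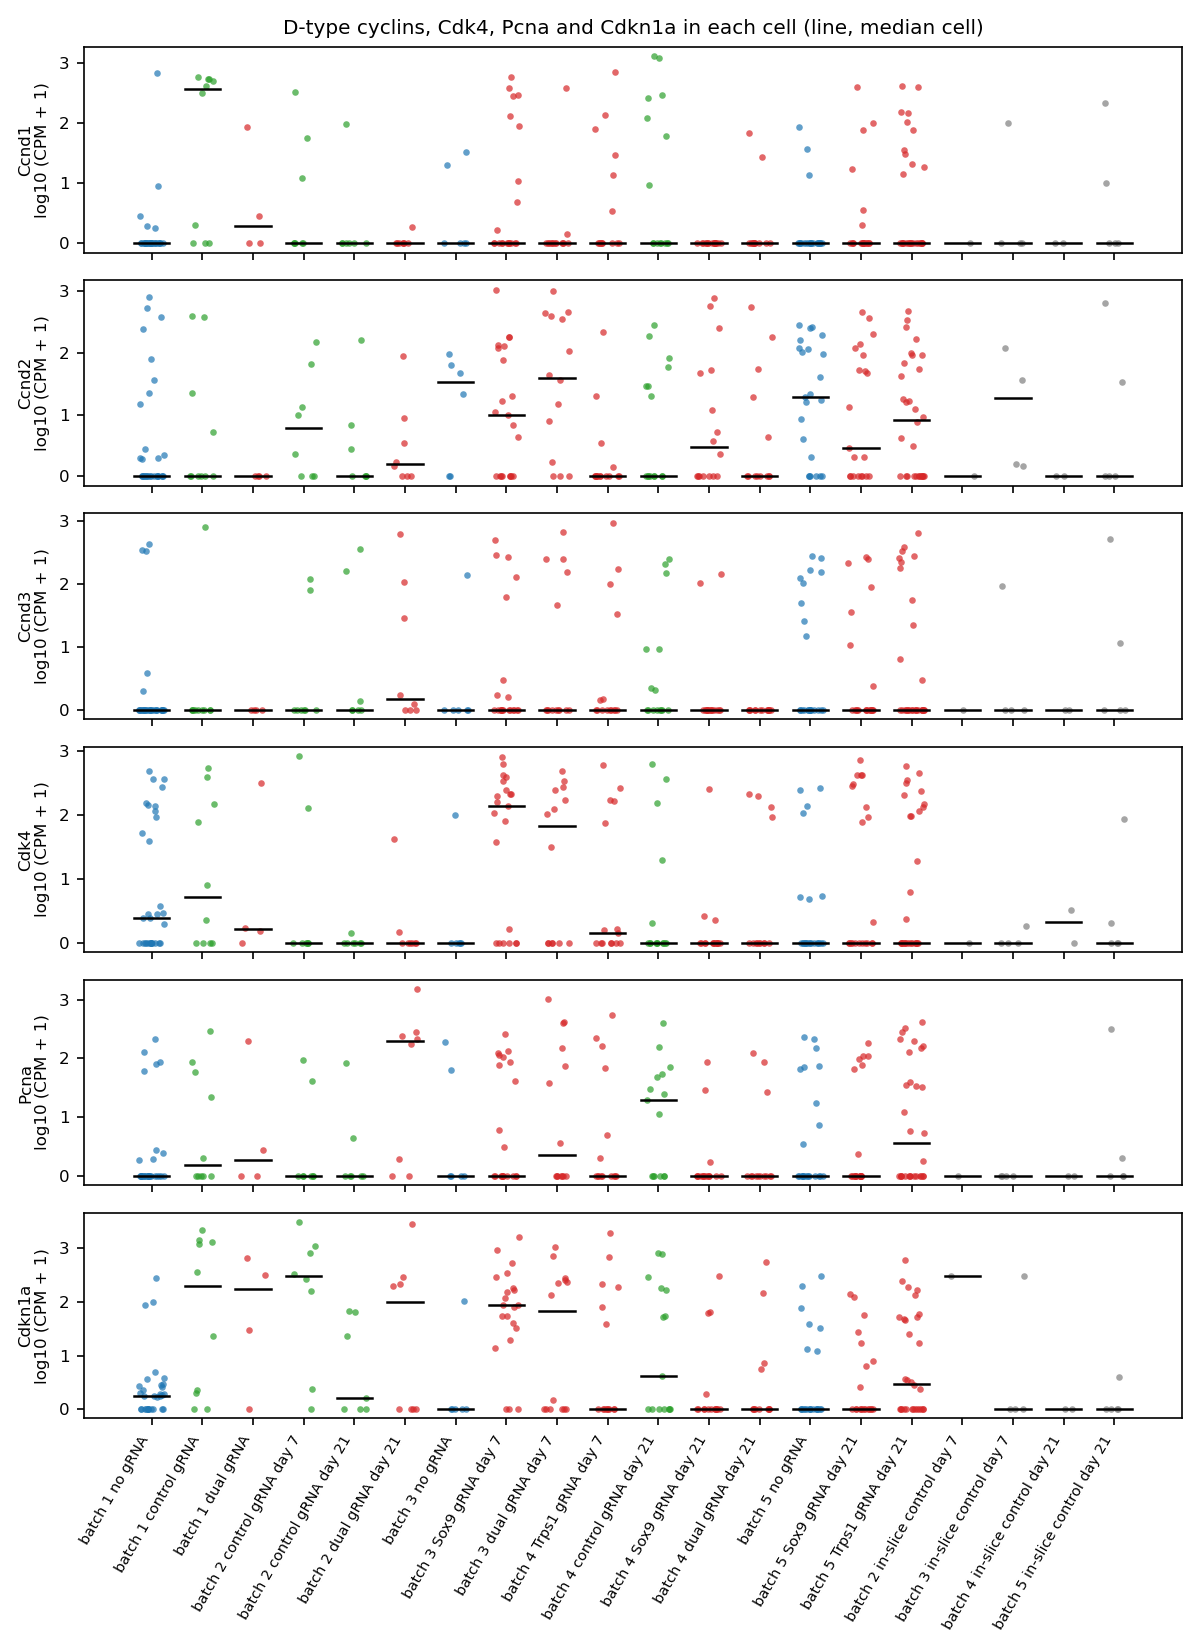
Level of the D-type cyclins, Cdk4, Pcna and the inhibitor Cdkn1a in each cell by pool, as log10 of CPM plus 1; points are cells, jittered sideways, and black lines are the median cell. For Cdk4 the median cell is at 133 CPM in Sox9 gRNA and 66.8 CPM in dual gRNA cells of batch 3, and for Ccnd1 at 361 CPM in control gRNA cells of batch 1.

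The pools were then compared within batches. A gene was compared where it reached 5 CPM over all astrocytes of the batch, and counted as higher or lower where the ratio of pooled CPM, after adding 5 CPM to each, was at least 1 or at most -1 on the log2 scale. It was counted as kept where this also held with the highest cell of each pool for that gene left out. The share of all compared genes that did the same is given as the background. The level for comparison counts all groups of the batch, so a member can reach it only through the pool where it is high. A count above the background is therefore no support for a difference by itself. Medians are also given over all members with a row. The median over all genes covers compared genes only, so the median over all members has no like background.

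In batch 1, control gRNA cells were set against no gRNA cells. Of 29 members compared, 22 were higher (background 32.6%) and 3 lower (31.1%); 15 were kept as higher (19.4%) and 1 as lower (20.3%). The median log2 ratio was 3.65 over these 29 members, 2.27 over all 44 and 0.03 over the 10708 genes compared, and 8 of the 22 higher members were at 0 in no gRNA cells. Mitosis genes gave 11 of 12 higher, 10 of them kept, replication genes 8 of 10 with 4 kept, and G1 regulators 3 of 7 with 1 kept. Among the mitosis genes compared, only Ccna2 and Birc5 reached 5 CPM in no gRNA cells (8.97 and 7.12 CPM). The others were at 0 to 0.282 CPM there and reached the level for comparison through gRNA cells. Among the replication genes counted as higher, only Pcna and Rrm1 reached 5 CPM in no gRNA cells (16.8 and 9.16 CPM). The counts of mitosis genes, of replication genes and of all members are therefore no support for a difference. Ccnd1 was at 309 against 34.8 CPM, in 7 of 10 against 5 of 31 cells, and without the highest cells at 282 against 0.198 CPM. Its control gRNA cells ran from 0 through a median of 361 to 568 CPM; among no gRNA cells, cell 9 was at 683 CPM, and the median was 0. Mcm3 was at 311 against 0 CPM, and Ube2c at 266 against 0.0314 CPM, in 6 of 10 against 1 of 31 cells. Rrm1 was at 191 against 9.16 CPM, Birc5 at 193 against 7.12 and Top2a at 151 against 0. The kept lower gene was Mcm4, at 3.35 against 56.3 CPM in 4 of 10 and 6 of 31 cells. Mcm2, Aurkb, Mcm6 and Ccne1 were higher on 1 cell each: without the highest cells they stood at 0.100, 0.200, 0 and 0 CPM in control gRNA cells. Microglia markers moved with the group, at 9285 against 292 CPM, and the part of this in the result was not tested.

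The dual gRNA cells of batch 1, set against the control gRNA cells, had 7 of 29 members higher (19.8%) and 18 lower (50.4%), of which 0 (4.36%) and 13 (29.1%) were kept. The median was -3.34 over these members and -1.82 over all 44, against -1.03 over the genes compared. Ccnd1 was at 24.3 against 309 CPM, Mcm3 and Ube2c at 0 against 311 and 266 CPM, Ccna2 at 0.368 against 222, Rrm1 at 0 against 191 and Top2a at 10.8 against 151 CPM. Cenpe (201 against 0 CPM), Cdkn2c (146 against 0), Cdk6 (97.6 against 0) and Cdc20 (305 against 92.3) were higher on 1 cell each of this pool of 4. Microglia markers were at 5102 against 9285 CPM. Without cell 4, 2 members were higher and 23 lower. Both comparisons of batch 1 use the control gRNA cells, so their values are not independent. Cdk1, Bub1 and Mcm3 had no read in no gRNA or dual gRNA cells and reached the level for comparison only through control gRNA cells. The count of lower members is therefore no support for a difference.

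In batch 2, dual gRNA cells of day 21 against control gRNA cells of day 21 had 18 of 27 members higher (29.4%) and 3 lower (35%), but only 1 (11.3%) and 2 (13.8%) were kept. The median was 3.44 over these 27 but 0.01 over all 44 members, against -0.02 over the genes compared, and 13 of the 18 higher members were at 0 in control gRNA cells. Pcna alone was kept as higher, at 326 against 14.6 CPM in 6 of 8 against 2 of 7 cells, and at 163 against 0.724 CPM without the highest cells. Cdk6 (26.8 against 142 CPM) and Cdkn2c (0 against 90.1 CPM) were kept as lower. Rrm2 (286 against 0), Top2a (213 against 0), Cdc20 (166 against 0) and Bub1b (164 against 0 CPM) were higher on cell 3. Between the control gRNA cells of day 21 and day 7, 4 of 27 members were higher (27.2%) and 7 lower (37.6%), with 2 (10%) and 2 (23.4%) kept, and the median was 0.00 over these and over all 44, against -0.15. Cdk6 was at 142 on day 21 against 22.5 CPM on day 7, Cdkn2c at 90.1 against 0.0550, Cdk4 at 0.0670 against 103 and Mcm4 at 0 against 17.98 CPM. Each of these 4 was read in 3 or fewer cells a pool. Cenpa (106 against 0 CPM) and Cdc45 (3.08 against 54.3 CPM) rested on 1 cell. Both comparisons of batch 2 use the control gRNA cells of day 21. Microglia markers were at 10469 CPM in dual, 6902 in control gRNA cells of day 21 and 5141 CPM in those of day 7.

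In batch 3 the reference was a pool of 6 cells without a gRNA, and these were uneven in depth. They held from 15959 through a median of 236508 to 1540474 reads. Because reads are summed over a pool, its deepest cells weigh most in each reference value. Against this pool, most genes of any kind were higher in both gRNA pools of day 7. With the Sox9 gRNA, 19 of 33 members were higher (61.5%) and 0 lower (10.2%), with 10 (49.7%) and 0 (3%) kept, and the median was 1.23 over these 33 members and 0.91 over all 44, against 1.48 over the genes compared. Of the 19 higher members, 15 were at 0 in no gRNA cells. With pools without a read set to 3 counts, the median over the 33 was 0.99; in the other comparisons that step moved the median by 0.108 or less. Cdk4 was at 181 CPM (176 to 186) against 37.6 CPM, in 15 of 21 against 1 of 6 cells; the cells ran from 0 through a median of 133 to 795 CPM, and the only no gRNA cell with a read was at 99.3 CPM. Mcm4 was at 77.1 against 0, Ccnd3 at 52.9 against 15.5, Ccnd1 at 94.2 against 10.9, Mcm3 at 29.8 against 0 and Rrm2 at 38.2 against 0 CPM. Cdc20 (14.5 CPM), E2f1 (12.4) and Ccnb1 (9.48), all at 0 in no gRNA cells, were higher with all cells only. With both gRNAs, 32 of 33 members were higher (55.9%) and 0 lower (12.8%), with 14 (38.1%) and 0 (4.75%) kept. Of these 32, 25 were at 0 in no gRNA cells and reached the level for comparison only through gRNA cells, so that the count is no support for a difference. The median was 2.45 over the 33 and 2.06 over all 44, against 1.28. Cdk4 was at 135 against 37.6 CPM in 8 of 14 against 1 of 6 cells, Rrm2 at 283 against 0, Rrm1 at 134 against 0, Pcna at 155 against 23.3 and Ccnd3 at 111 against 15.5 CPM. Cdkn2c was at 34.1 against 0 CPM, in 4 of 14 against 0 of 6 cells. Cdc20 and Mcm2, at 54.9 and 54.5 against 0 CPM, were among those that rested on 1 cell. Ccnd1 changed direction: it was at 29.4 against 10.9 CPM with all cells and at 0.0507 against 8.22 CPM without the highest cells. Microglia markers were at 8745 (Sox9) and 6150 CPM (dual) against 191 CPM. Both comparisons share the no gRNA cells. In titles, the Sox9 gRNA cells fall into sets of 13 and 8 with Ccnd3 at 77.3 and 12.8 CPM, the latter below the 15.5 CPM of no gRNA cells, and Cdk4 at 170 and 199 CPM. The dual gRNA cells fall into 2 sets of 7, with replication genes at 936 and 880 CPM, Ccnd1 at 62.6 and 0.0880 CPM, and Ccnd2 at 63.1 and 312 CPM.

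In batch 4, the day 21 pools were compared with control gRNA cells of the same day, which both comparisons share. With the Sox9 gRNA, 3 of 24 members were higher (20.7%) and 6 lower (35.1%), with 2 (8.69%) and 3 (22.3%) kept, and the median was -0.20 over the 24 and over all 44, against -0.37 over the genes compared. Ccnd1 was read in 0 of 16 against 7 of 15 cells (165 CPM, 159 to 171). The 15 control gRNA cells ran from 0 through a median of 0 to 1278 CPM, so that most of them overlapped the Sox9 gRNA cells at 0. Pcna was at 6.75 against 62.6 CPM in 3 and 9 cells, and Cdk4 at 16.9 against 97.9 CPM in 3 and 5 cells. Ccnd2, another D-type cyclin, was higher, at 123 (118 to 129) against 38.7 CPM (35.9 to 41.7) in 9 of 16 and 7 of 15 cells, and Cdk1 was at 21.8 against 0 CPM. With both gRNAs, 4 members were higher (17.1%) and 6 lower (31.6%), with 0 (8.31%) and 3 (18.7%) kept, and medians of -0.08 over the 24, -0.04 over all 44 and -0.28 over the genes compared. Ccnd1 was at 9.02 against 165 CPM in 2 of 13 and 7 of 15 cells, Ccnd3 at 0 against 36.8 CPM in 0 and 7 cells, and Pcna at 25.2 against 62.6 CPM in 3 and 9 cells. Mcm3 (50.7 against 0.660 CPM), Mcm2 (37.4 against 1.92), Cenpa (35.5 against 1.37) and Rrm2 (25.7 against 0.220) were higher on 1 cell each. Ccnd2 was at 76.0 CPM with both gRNAs, and 28.2 without its highest cell. Microglia markers were at 5156 CPM in the Sox9, 11150 in the dual and 11162 CPM in the control gRNA pool, and astrocyte markers at 7601, 1626 and 7707 CPM. Whether these differences bear on the D-type cyclins was not tested. The Trps1 gRNA cells of day 7 had no group of that day in the batch, and their values are not compared: Cdk4 stood at 103, Ccnd3 at 101, Pcna at 70.2 and Ccnd1 at 68.0 CPM, with 78.4% of Ccnd3 from cell 12 and 81.7% of Ccnd1 from cell 6.

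In batch 5, no mitosis gene reached the level for comparison, and 14 of 40 members did. With the Sox9 gRNA, 3 were higher (21.9%) and 1 lower (17.7%) than in no gRNA cells, with 2 (14.1%) and 1 (14.1%) kept, and the median was 0.06 over the 14 and 0.00 over all 40, against 0.05 over the genes compared. Cdk4 was at 136 (131 to 142) against 38.4 CPM (35.6 to 41.4) in 10 of 21 against 7 of 23 cells, Ccnd1 at 36.5 against 6.87 CPM in 6 of 21 against 3 of 23, and Mcm4 at 3.69 against 33.0 CPM. Gins2 (11.1 against 0 CPM) was higher with all cells only. With the Trps1 gRNA, 9 were higher (29.2%) and 0 lower (12%), of which 2 (20.4%) and 0 (9.05%) were kept, and the median was 1.298 over the 14 but 0.42 over all 40 members with a row, against 0.40 over the genes compared. Of the 9 higher members, 5 were at 0 in no gRNA cells and reached the level for comparison only through gRNA cells. The count is therefore no support for a difference. Ccnd1 was at 51.0 (48.3 to 53.8) against 6.87 CPM (5.70 to 8.21), in 11 of 30 against 3 of 23 cells, and Mcm6 at 32.8 against 0.170 CPM in 5 of 30 against 1 of 23 cells. Rrm2 (39.8 CPM), Cdk2 (29.7), Mcm3 (24.9) and Cdk6 (12.1), all at 0 in no gRNA cells, were higher with all cells only. By title the 3 sets of Trps1 gRNA cells held 62.8, 59.9 and 38.4 CPM of Ccnd1, and the 2 sets of no gRNA cells 12.6 and 0. Microglia markers were at 9304 and 6965 CPM in the gRNA pools against 227 CPM.

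**Figure D5:**
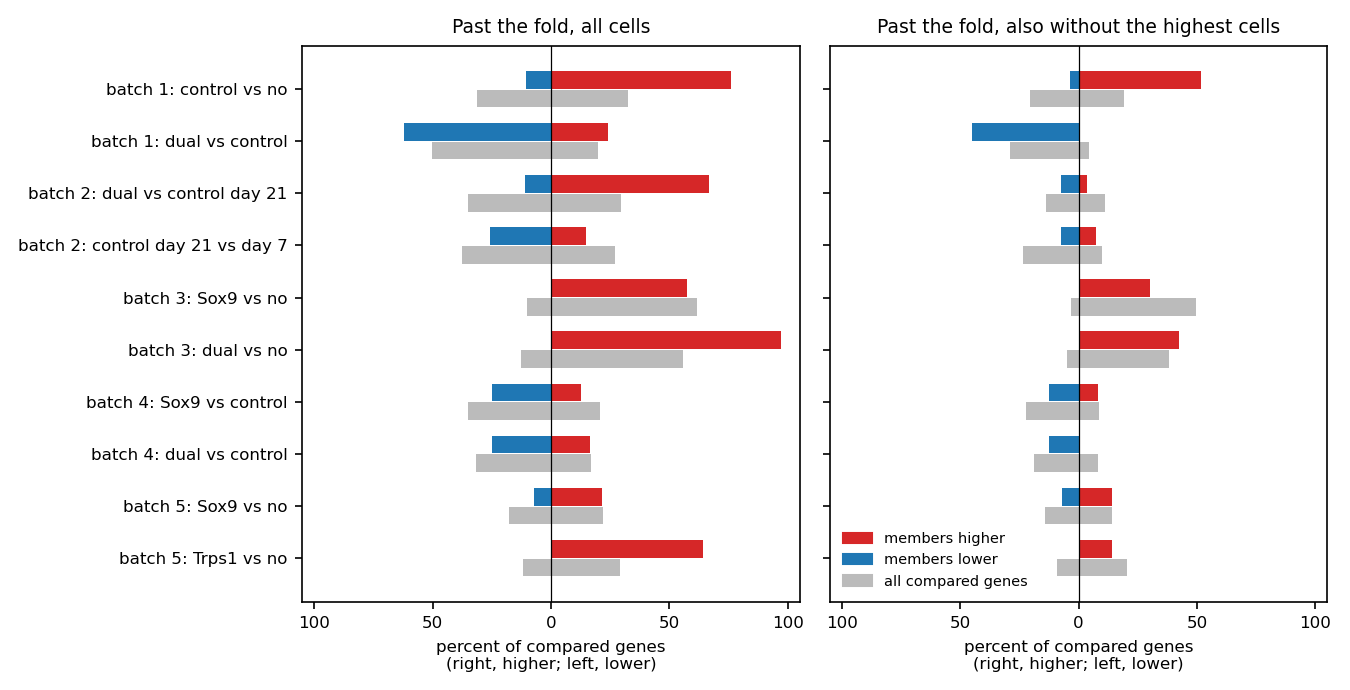
Percent of compared members higher (red, to the right) and lower (blue, to the left) in each comparison, beside the same over all compared genes (grey), with all cells (left panel) and where it also held without the highest cells (right panel). Control against no gRNA cells of batch 1 keeps 15 of 29 members as higher against 19.4% of all genes. Dual against control gRNA cells of batch 2 drops from 18 to 1 of 27. Members can reach the level for comparison only through the pool where they are high, so a larger share than grey is no support for a difference.

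Other cell cycle genes, from lists of 29 replication, 31 mitosis and 22 inhibitor and regulator genes that are not members, gave 1 gene seen in most comparisons. Cdkn1a, an inhibitor of cyclin-dependent kinases that p53 induces, was at 590 against 20.8 CPM in control and no gRNA cells of batch 1 (8 of 10 and 19 of 31 cells). In batch 3 it was at 168 and 176 CPM in Sox9 and dual gRNA cells against 0.606 CPM in no gRNA cells (18 of 21, 8 of 14 and 1 of 6 cells). In batch 2 it was at 589 CPM on day 7 and 26.5 CPM on day 21 in control gRNA cells, in 7 of 8 and 4 of 7 cells, and at 435 CPM in dual gRNA cells of day 21. In batch 4 it was at 24.8 CPM in Sox9 and 72.0 CPM in dual gRNA cells against 188 CPM in control gRNA cells, and in dual gRNA cells of batch 1 at 284 CPM. All of these were kept without the highest cells. In batch 5 it was at 19.02 (Sox9), 61.7 (Trps1) and 27.8 CPM (no gRNA), and in-slice controls held 0 to 309 CPM.

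The other lists were counted in the same way. In control against no gRNA cells of batch 1, 15 of 16 other mitosis genes compared were higher (9 kept). So were 12 of 15 other replication genes (4 kept) and 4 of 13 inhibitors and regulators (3 kept). All genes gave 32.6% higher and 19.4% kept, and the last list was near that background. Of the mitosis and replication genes counted here as higher, 7 and 2 were at 0 in no gRNA cells. These reached the level for comparison only through gRNA cells, so the counts of those lists are no support for a difference. Racgap1, which organises the midzone of the spindle, was at 120 against 2.197 CPM and the mitotic kinase Pbk at 69.2 against 0.0628 CPM, while the chromatin assembly subunit Chaf1a was lower, at 24.2 against 63.3 CPM. In dual against control gRNA cells of batch 2, 12 of 17 other mitosis genes were higher and 1 was kept (29.4% and 11.3% of all genes). In dual against no gRNA cells of batch 3, 16 of 20 were higher and 3 kept, and 18 of 20 other replication genes were higher and 7 kept, where all genes gave 55.9% higher and 38.1% kept, so that neither kept count was above the background. In the dual against control gRNA cells of batch 1, Rfc2, a subunit of the clamp loader, was at 1200 against 119 CPM, and in those of batch 4 at 105 against 8.08 CPM. In batch 2, the histone mRNA binding factor Slbp was at 2.68 CPM on day 21 against 136 CPM on day 7 in control gRNA cells, Cdkn2d at 0.470 against 140 and Fzr1 at 0.134 against 111 CPM. In batch 4, with the Sox9 gRNA, Rbl2 of the retinoblastoma family was at 62.0 against 1.59 CPM and Trp53 at 27.4 against 70.0 CPM. In batch 5, Cdkn1b, another inhibitor of cyclin-dependent kinases, was at 50.7 CPM with the Trps1 gRNA, in 21 of 30 cells, and at 56.7 CPM with the Sox9 gRNA, in 10 of 21 cells, against 10.9 CPM in 8 of 23 no gRNA cells. In batch 3 it was at 33.98 CPM with the Sox9 gRNA against 7.28 CPM. It went the other way in batch 1, at 10.9 CPM in control against 26.99 CPM in no gRNA cells, a value chosen after it was seen. E2f3 and E2f2, activating E2F factors, were at 36.1 and 26.2 CPM with the Trps1 gRNA against 4.71 and 0.0568 CPM.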

How the data were processed

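Smart-seq2 libraries of single mouse cortical astrocytes and of in-slice controls were used in 5 batches; 254 of 289 samples had values here (242 astrocytes, 12 in-slice controls), and 35 of batch 4 were not analysed here. The deposited values are raw read counts per gene; the submitters' processing notes name STAR 2.6.0a, RSEM 1.3.0 and GRCm38 (mm10), with strand use not given in the sources used here. Rows that name no gene held 75.6, 22.3, 0.00115, 0.379 and 0.137% of counts in batches 1 to 5 and were left out of totals. Reads carry no molecular identifiers, so PCR copies are counted and intervals cover counting error only.

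Counts were summed over the cells of each gRNA group, day and batch and divided by the pool's reads in genes (CPM), with exact Poisson intervals; shares of cells have Clopper-Pearson intervals (95%). Since the labels name no animal, a pool is 1 sample, cells are not replicates, and neither a count model nor a p-value was used. For shares of cells, each cell was thinned to 100000 reads, and cells with fewer were left out (3 of 60 no gRNA cells). Ratios used a pseudocount of 5 CPM, a filter of 5 CPM over the astrocytes of a batch and a threshold of 1 on the log2 scale. Comparisons were made only within a batch, since tables list different genes. The text names members past that threshold with and without each pool's highest cell, at most 6 a direction, then up to 4 that pass with all cells only, and up to 4 genes a comparison from the other lists. No doublet caller was run. The members and lists were chosen with earlier results of these data known. Promoter windows and gene starts are RefSeq's (GRCm38.p6). The ratios were tested on simulated pools with known fold changes, in which all cells were drawn around a shared mean profile. That test does not cover genes carried by a single cell, as many are here. Scripts used Python 3.11.15, numpy 2.4.6, pandas 2.3.3, scipy 1.17.1, matplotlib 3.10.9 and edgeR 4.0.16 (TMM factors for an alternative only). Alternatives were another pseudocount, no filter, TMM, the mean of cell CPM, deeper cells only, cells left out, and other cut-offs for the share of cells.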

Additional observations from a re-analysis of the deposited data

Results flagged for a closer look

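Within pools of 4 to 10 libraries, 24 combinations of pool and gene group were looked at, and in 14 the highest library stood apart from the others by Dixon's 95% criterion, which chance meets in about 1 in 20 groups of normally spread values. Many of these pools have most cells at or near 0, where a single cell with reads meets the criterion by construction, so the 14 are not to be read against that share. For mitosis genes, the highest cell was at 2930 CPM in dual gRNA cells of batch 1 (next 10.8), at 704 CPM in control gRNA cells of day 21 in batch 2 (next 82.9), at 161 CPM in those of day 7 (next 0.649) and at 11618 CPM in dual gRNA cells of batch 2 (next 45.8). In batch 3, the highest of 4 in-slice controls was at 66.6 CPM (next 7.56) and the highest of 6 no gRNA cells at 0.801 CPM (next 0), and in batch 5 the highest of 5 in-slice controls was at 26.4 CPM (next 0).

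For replication genes, the highest cell was at 1250 CPM in dual gRNA cells of batch 1 (next 194), at 102 CPM in control gRNA cells of day 21 in batch 2 (next 14.7) and at 5074 CPM in dual gRNA cells of batch 2 (next 284). In batch 3, 1 in-slice control was at 89.5 CPM (next 1.68) and 1 no gRNA cell at 187 CPM (next 63.7). In batch 5, 1 in-slice control was at 316 CPM (next 2.00). For G1 regulators, 1 in-slice control of batch 5 was at 1170 CPM (next 307). Cell 4 of the dual gRNA pool of batch 1 and cell 3 of that of batch 2 stood apart in both mitosis and replication genes.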

How the results depend on the processing

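Leaving out the highest cell of each pool for each gene and counting anew changed the most counts of members. Members higher went from 7 to 0 (dual against control, batch 1), 18 to 2 (dual against control, batch 2), 4 to 2 (day 21 against day 7), 19 to 11 and 32 to 14 (Sox9 and dual, batch 3), 4 to 0 (dual, batch 4) and 9 to 3 (Trps1, batch 5). Members lower went from 0 to 1 (dual, batch 3) and from 6 to 3 with both the Sox9 and the dual gRNAs of batch 4. With a pseudocount of 1 CPM, 29 members were higher with the Sox9 gRNA in batch 3 and 11 lower with it in batch 4. With no filter, the counts in batch 5 were 5 higher and 2 lower with the Sox9 gRNA and 14 higher with the Trps1 gRNA; the added genes are those under 5 CPM. Leaving out each cell of the dual gRNA pool of batch 1 gave 2 to 7 members higher and 17 to 23 lower. TMM factors, the mean of cell CPM, and only cells of 100000 reads or more left all 20 counts within 1.5 times. The share of cells with mitosis genes went to 0 with a cut-off of 5 genes in the Sox9 (6.25%) and dual gRNA cells (7.69%) of batch 4, and in the latter also when thinned to 50000 reads. Without cells over 9000 genes, chosen after seeing the data, it went to 0 in control gRNA cells of day 7 in batch 2 (12.5%), Sox9 gRNA cells of batch 3 (4.76%), and control (33.3%) and dual gRNA cells of batch 4. With no thinning, or counting genes at 10 CPM or more, also chosen after seeing the data, all 16 shares stayed within their intervals. These intervals are wide, so this says little about stability. With no thinning the share went from 6.25 to 25% in Sox9 gRNA cells of batch 4. It went from 40 to 60% in Trps1 gRNA cells of batch 4 and in control gRNA cells of batch 1. Apart from these, the cause of a change was not tested. No paired analysis was possible because replicate numbers only name cells within a pool and pair nothing across groups, and no test was run. Sequencing depth limits the no gRNA pool of batch 3, whose median cell held 236508 reads.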
